A study of Homo sapiens with 3 samples.

Results

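The genes described are 10 subunits of BAF, the mammalian SWI/SNF chromatin remodelling complex, for which cells can use alternative proteins. They were taken by symbol through GENCODE from 58302 genes counted in C4-2 cells, a castration-resistant prostate adenocarcinoma line derived from LNCaP. All 10 symbols matched 1 identifier each. Only 1 group was analysed here: 3 replicate libraries of C4-2 cells labelled as adenocarcinoma and wild type, with no treatment named. The series sets adenocarcinoma against neuroendocrine cell lines and depletes neuropilin-2 in the neuroendocrine cells, and those samples were not analysed here. The labels do not say whether the 3 replicates were separate cultures. Errors and p-values therefore apply to these 3 libraries only, and the spread between them may be technical variation only.

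BAF complexes use the energy of ATP to slide or evict nucleosomes. Each complex holds 1 of the related ATPases SMARCA4 (BRG1) and SMARCA2 (BRM), and several other positions are filled by 1 member of a small family. In the developing mouse brain, progenitors use ACTL6A, PHF10, DPF2 and SS18, and neurons that have left the cell cycle use ACTL6B, DPF1, DPF3 and SS18L1 in their place. In human prostate tumours, ACTL6B and DPF1 have been described as expressed in neuroendocrine disease. Below, ACTL6B, DPF1, DPF3 and SS18L1 are called the neural variants, and ACTL6A, DPF2, PHF10 and SS18 the non-neural variants.

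The libraries held 47513470 to 51200272 reads assigned to genes, and log2 levels of 21039 detected genes correlated between libraries at r = 0.988 to 0.989 across genes, which are not independent replicates. Detection was set at 10 or more reads in each of the 3 libraries. Among genes with 1 to 10 reads, 78.7% to 84.6% of counts were even numbers, as happens where both mates of a read pair are counted, and the number of independent fragments is then lower than the number of reads. The cells carried their labelled identity: all 8 luminal prostate markers reached at least 1 TPM (transcript abundance from reads scaled by exon length and library total). Their summed level was 3891 to 3945 TPM, led by KLK3 (1440 ± 26.3 TPM; SD, n = 3). Of 10 neuron markers 6 were detected and 3 reached 1 TPM, with a summed level of 12.7 to 13.2 TPM. MAP2 (5.83 ± 0.316 TPM) and NEFL (3.24 ± 0.335 TPM) were the highest, and ELAVL4 had 0 reads. Of 5 fibroblast markers 1 was detected, COL1A1 (10.2 ± 0.392 TPM), LUM had 4, 2 and 0 reads, and COL1A2 had 0 reads. Of 5 immune markers 2 were detected, CSF1R (1.46 ± 0.395 TPM) and CD14 (0.572 ± 0.220 TPM), and CD3E had 0 reads. A count of 0 allows up to 3 reads, or 0.0631 CPM (reads scaled by library total) in the smallest library and 0.126 CPM where both mates are counted, for counting error alone. In bulk RNA, fewer cells that express a gene and less RNA per cell cannot be told apart.

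All 10 subunit genes were detected, as were 71.8% of 19708 protein-coding genes. Of the 10, 9 had a mean of at least 1 TPM, a level that 62.7% of protein-coding genes reached. The 3 lowest genes were all neural variants, but with merged exon lengths the neural variant SS18L1 stood level with its counterpart SS18. With transcript lengths SS18L1 was the lower of that pair in every library. The neural variants spanned 0.697 TPM (DPF3) to 35.4 TPM (SS18L1) with a median of 4.18 TPM, and the non-neural variants spanned 19.9 TPM (PHF10) to 50.9 TPM (ACTL6A) with a median of 31.3 TPM. The median of all protein-coding genes was 5.43 TPM. Summed within a library, the 4 neural variants gave 42.5 to 46.0 TPM and the 4 non-neural variants 129 to 137 TPM. SS18L1 supplied most of the neural sum.

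**Figure D1:**
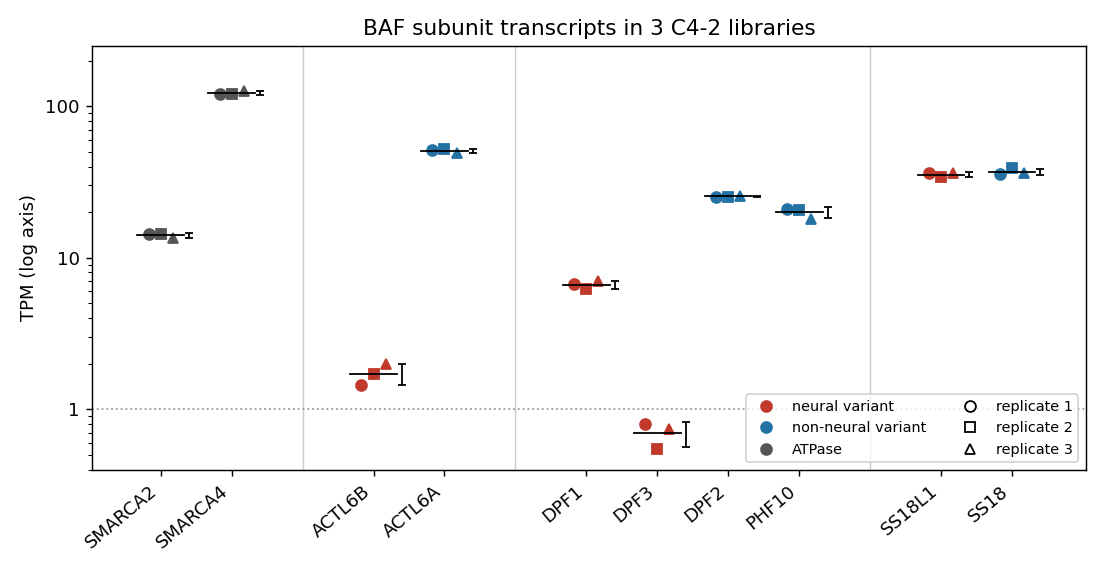
TPM on a log axis of the 10 subunit genes in 3 C4-2 libraries, grouped by position in the complex, with each library as a symbol, the mean as a line and the SD as a bar (n = 3). DPF3 lies below the dotted line at 1 TPM, ACTL6B just above it, and SS18L1 and SS18 lie at the same height.

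The ATPase transcripts were dominated by SMARCA4. SMARCA2 had 4494, 4124 and 4190 reads in replicates 1, 2 and 3, which gave 14.4, 14.4 and 13.5 TPM. SMARCA4 had 22421, 20528 and 23326 reads, or 121, 120 and 126 TPM. The 2 sets of values were far apart in every library. SMARCA2 averaged 14.1 ± 0.521 TPM and SMARCA4 122 ± 3.28 TPM (SD, n = 3 each), the 62.1st and the 94.5th percentile of protein-coding genes. The within-library difference of SMARCA2 minus SMARCA4 on the log2(TPM + 0.1) scale was −3.11 ± 0.092 (SD, n = 3), an 8.63-fold higher level of SMARCA4, with the same sign in 3 of 3 libraries. A two-sided permutation test that flips signs exactly over the libraries gave p = 0.25, the smallest that 3 libraries allow, so no difference between subunits could pass 0.05 by this test. SMARCA2 made up 10.3 ± 0.583% of the summed TPM of the ATPase pair.

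The size of that difference depends on the exon length used. In the files the merged exons of SMARCA2 (chromosome 9, 1980290 to 2193624, plus strand, GRCh38) cover 18595 bases, 2.63 times the 7061 bases of its longest annotated coding transcript. Those of SMARCA4 (chromosome 19, 10961001 to 11065395, plus strand) cover 11067 bases, 1.92 times its longest coding transcript. With transcript lengths SMARCA2 came to 27.1 ± 0.955 TPM and SMARCA4 to 171 ± 4.88 TPM, and the log2 difference was −2.66, or 6.30-fold. SMARCA2 shares 420 exon bases (2.26%) with its antisense gene SMARCA2-AS1, and SMARCA4 shares 99 bases (0.895%) with another gene on the same strand. Reads over bases shared by several genes were dropped. The counting options set no strand, so this held for genes on opposite strands too.

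At the actin-like position the non-neural gene was far higher. ACTL6B, which in mouse neurons is needed for dendrite outgrowth, had 58, 63 and 79 reads in replicates 1, 2 and 3, or 1.45, 1.71 and 1.98 TPM. ACTL6A had 3157, 2962 and 3028 reads, or 51.2, 52.3 and 49.3 TPM. The values of these genes did not overlap in any library. ACTL6B averaged 1.71 ± 0.267 TPM and ACTL6A 50.9 ± 1.51 TPM (SD, n = 3 each), at the 41.0th and the 85.1st percentile of protein-coding genes. ACTL6B minus ACTL6A was −4.83 ± 0.24 log2 units and negative in 3 of 3 libraries (p = 0.25, exact sign flips), so ACTL6A was 28.4-fold higher. ACTL6B held 3.26 ± 0.561% of the summed TPM of the pair, and 2.75% to 3.86% in single libraries.

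ACTL6B lies on chromosome 7 (100643097 to 100656461, minus strand, GRCh38) and shares no exon base with another annotated gene. At its exon length of 2389 bases, 1 read was worth 0.0249 to 0.0272 TPM. Its mean of 1.71 TPM was close to that of CSF1R, a macrophage gene measured here at 1.46 ± 0.395 TPM, and above that of CD14. The reads of ACTL6B were read from gene totals, which do not show where in the gene they fell. ACTL6A lies on chromosome 3 (179562880 to 179588408, plus strand) and shares 220 exon bases (5.99%) with other genes, of which 124 bases are shared with MRPL47 on the opposite strand. ACTL6A protein is also a subunit of the INO80 and TIP60 complexes, so its transcript level does not belong to BAF alone. All 12 listed genes of those complexes were detected and 11 reached 1 TPM, beside 71.8% and 62.7% of protein-coding genes. RUVBL2 (113 ± 5.14 TPM) and TRRAP (104 ± 0.468 TPM) were the highest, and INO80B was the lowest at 0.644 ± 0.0576 TPM, all with merged exon lengths. With transcript lengths RUVBL1 (219 TPM) and RUVBL2 (184 TPM) were the highest, and TRRAP came to 78.9 TPM. Over its unshared exon bases alone INO80B came to 2.19 TPM, above 1 TPM.

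In differentiating neurons the switch from ACTL6A to ACTL6B is known to run through the microRNAs miR-9-3p (miR-9*) and miR-124, which repress ACTL6A through its 3' UTR, and through the repressor REST, which keeps those microRNAs silent in other cells. The mature sequences of the MIR9 hairpins and the matches to the seed of miR-9-3p are shown because ACTL6A is the described target of miR-9-3p. Capitals mark the seed (bases 2 to 8) in the microRNAs, from RefSeq on GRCh38.p14.
miR-9-3p: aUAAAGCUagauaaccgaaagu
miR-9-5p: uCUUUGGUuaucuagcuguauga
The 3' UTR of the canonical GENCODE transcript of ACTL6A is 397 bases long and holds 2 matches to AGCTTTA, the complement of the miR-9-3p seed, searched on the transcript strand. They begin at bases 49 and 138 of the UTR. Capitals mark the match in each 30-base window, and the windows lie at chr3:179588044-179588073 and chr3:179588133-179588162 (GRCh38, plus strand).
ACTL6A first match: caccttacgtttcatAGCTTTAgtatactc
ACTL6A second match: acttaaattttttaaAGCTTTAactggctc
SMARCA2 match: catcgtctataaactAGCTTTAggatagtg
The SMARCA2 match begins at base 123 of an 881-base 3' UTR, and its window lies at chr9:2192847-2192876 (GRCh38, plus strand). The other 8 subunit genes held no AGCTTTA in the canonical 3' UTR, and 13.6% of 19300 canonical 3' UTRs held at least 1. A match describes the letters and does not show binding. The complement of the miR-9-5p seed, ACCAAAG, was found in DPF3 alone among the 10, at 2 places of a 10263-base 3' UTR, and 12.8% of all 3' UTRs held it.

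Regulators of this switch were mostly expressed, and the listed miR-124 host genes were at or near 0. REST stood at 31.8 ± 2.17 TPM (SD, n = 3). Of the 13 listed regulators 11 were detected and 10 reached 1 TPM, beside 71.8% and 62.7% of protein-coding genes. The list also holds non-coding microRNA host genes, for which those shares are not a like background. Of all 58302 genes, coding or not, 21039 were detected and 21283 reached a mean of 1 TPM. The highest were PTBP1 (258 ± 5.33 TPM), a splicing repressor of non-neuronal cells, and CTDSP1 (78.3 ± 1.25 TPM), a phosphatase that acts with REST. The host gene MIR124-2HG had 0 reads in every library, and MIR124-1HG had 4, 0 and 4 reads. Of the listed miR-9 host genes, MIR9-1HG stood at 0.994 ± 0.147 TPM and MIR9-3HG at 3.53 ± 0.218 TPM with merged exon lengths. With transcript lengths MIR9-1HG came to 1.87 TPM, above 1 TPM, and MIR9-3HG to 3.34 TPM. Counts of host genes do not measure the mature microRNAs.

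The family with paired PHD fingers, which bind histone tails, was led by DPF2. DPF1 had 538, 462 and 563 reads in replicates 1, 2 and 3, or 6.68, 6.25 and 7.02 TPM. DPF3, a subunit known from heart and muscle development in the mouse and zebrafish, had 93, 58 and 85 reads, or 0.804, 0.547 and 0.739 TPM. Both lay below their non-neural relatives in every library. PHF10, a subunit of the polybromo-containing PBAF complex, had 1952, 1763 and 1665 reads, or 21.0, 20.7 and 18.0 TPM. DPF2, the ubiquitous member found in canonical BAF, had 3285, 3003 and 3319 reads, or 25.4, 25.3 and 25.8 TPM. DPF2 had the smallest relative spread of the 10 genes in TPM, with a coefficient of variation of 1.03%, and PHF10 was lowest in replicate 3.

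DPF1 averaged 6.65 ± 0.388 TPM, DPF3 0.697 ± 0.134 TPM, PHF10 19.9 ± 1.64 TPM and DPF2 25.5 ± 0.262 TPM (SD, n = 3 each). DPF1 minus DPF2 was −1.92 ± 0.070 log2 units, and DPF2 was 3.79-fold higher. DPF3 minus DPF2 was −5.02 ± 0.25 log2 units, and DPF2 was 32.4-fold higher on the log2(TPM + 0.1) scale. The 0.1 added lowers this fold for a gene as low as DPF3, and with 0.01 the difference was −5.19. PHF10 minus DPF2 was −0.36 ± 0.14 log2 units, and DPF2 was 1.28-fold higher. Each difference was negative in 3 of 3 libraries (p = 0.25, exact sign flips). DPF1 and DPF3 together made up 13.9 ± 1.09% of the summed TPM of the 4 genes, and 22.4 ± 1.04% of the sum when PHF10, which serves another complex, was set aside.

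Of the 6 differences, DPF3 minus DPF2 moved most when transcript lengths replaced merged exon lengths. DPF3 (chromosome 14, 72619296 to 72894116, minus strand) was counted over 6889 exon bases, but its longest coding transcript in GENCODE has 11413 bases, 10263 of them in a 3' UTR that runs beyond the exons counted. With that length DPF3 came to 0.307 TPM and the difference from DPF2 to −6.58 log2 units. Since reads over the longer UTR were not counted, the transcript-length value understates DPF3. For DPF1 (chromosome 19, 38211006 to 38229714, minus strand) and DPF2 (chromosome 11, 65333754 to 65353249, plus strand) the same change left the difference at −1.96. PHF10 (chromosome 6, 169703905 to 169725566, minus strand) shares 330 exon bases (5.96%) with 3 other genes, among them C6orf120 on the opposite strand, and its difference from DPF2 came to −1.08 with transcript lengths.

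SS18L1 and SS18 were at like levels when merged exon lengths were used. SS18L1, which encodes the calcium-responsive coactivator CREST, had 3080, 2663 and 3087 reads in replicates 1, 2 and 3, or 36.0, 33.9 and 36.3 TPM. SS18, the gene fused to SSX in synovial sarcoma, had 3702, 3694 and 3714 reads, or 35.9, 39.0 and 36.2 TPM. The 2 genes overlapped: SS18L1 was marginally higher in replicates 1 and 3 and lower in replicate 2. SS18L1 averaged 35.4 ± 1.28 TPM and SS18 37.0 ± 1.74 TPM (SD, n = 3 each), at the 79.3rd and the 80.0th percentile of protein-coding genes. SS18L1 minus SS18 was −0.064 ± 0.12 log2 units (p = 1.0, exact sign flips), a difference smaller than the spread between libraries. SS18L1 held 48.9 ± 2.06% of the pair's summed TPM, against 3.26% for ACTL6B in its pair.

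Neither SS18L1 (chromosome 20, 62143795 to 62182484, plus strand) nor SS18 (chromosome 18, 26016253 to 26091217, minus strand) shares an exon base with another annotated gene. Their merged exons exceed the longest coding transcript by different factors, 1.12 for SS18L1 and 1.81 for SS18. With transcript lengths SS18L1 came to 28.9 ± 1.07 TPM and SS18 to 48.8 ± 2.26 TPM, a difference of −0.75 log2 units with SS18 1.68-fold higher, and the share of SS18L1 was 37.2 ± 1.91%. Under every length used, SS18L1 stayed the highest of the 4 neural variants.

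**Figure D2:**
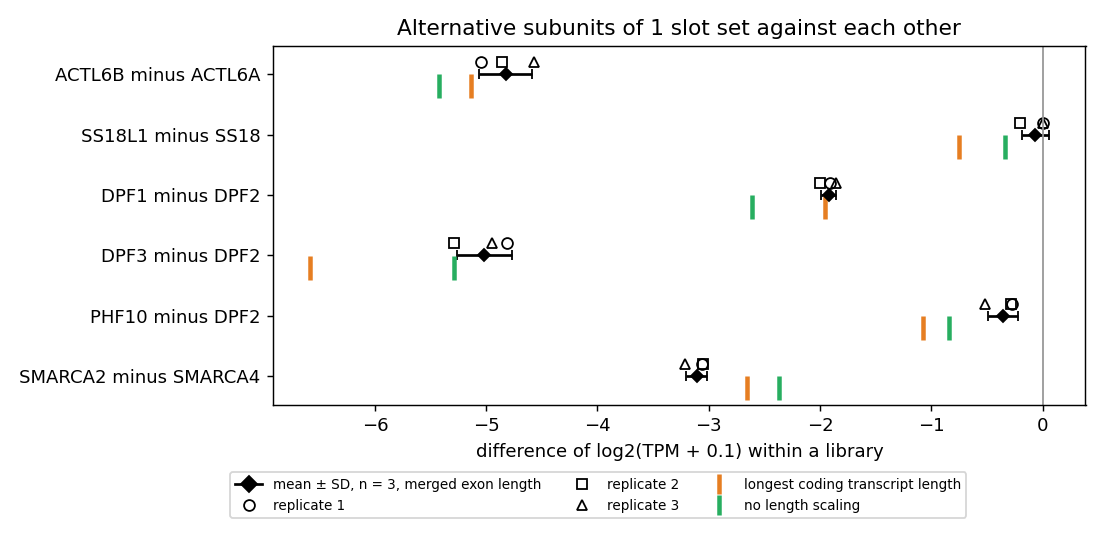
Within-library differences of log2(TPM + 0.1), neural or alternative subunit minus its counterpart, for 6 pairs. Open symbols are the 3 libraries and diamonds the mean with SD (n = 3). Coloured ticks are the mean with longest coding transcript lengths and the mean with no length scaling, the latter on log2(CPM + 0.1). ACTL6B minus ACTL6A and DPF3 minus DPF2 lie near −5, and SS18L1 minus SS18 lies at −0.064, where 2 of the 3 libraries are just above 0.

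The neural variants differ in the sequence around their transcription starts as well as in level. The windows of 250 bases before to 50 bases after the first listed start are shown for all 4, from RefSeq on GRCh38.p14, with capitals for CpG dinucleotides, the sites of DNA methylation. Windows rich in CpG are typical of broadly expressed genes.
ACTL6B promoter: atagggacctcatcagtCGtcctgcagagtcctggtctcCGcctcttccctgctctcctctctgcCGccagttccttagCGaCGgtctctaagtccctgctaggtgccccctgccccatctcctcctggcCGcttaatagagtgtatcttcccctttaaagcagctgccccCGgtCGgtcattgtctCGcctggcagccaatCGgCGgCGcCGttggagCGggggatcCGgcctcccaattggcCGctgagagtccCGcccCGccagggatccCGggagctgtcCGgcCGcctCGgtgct
DPF1 promoter: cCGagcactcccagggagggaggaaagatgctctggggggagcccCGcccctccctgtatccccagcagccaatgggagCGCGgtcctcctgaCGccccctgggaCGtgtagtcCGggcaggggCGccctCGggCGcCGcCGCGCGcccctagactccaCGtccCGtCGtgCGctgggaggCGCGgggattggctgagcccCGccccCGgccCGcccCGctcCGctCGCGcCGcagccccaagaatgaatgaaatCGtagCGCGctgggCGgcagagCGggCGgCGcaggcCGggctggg
DPF3 promoter: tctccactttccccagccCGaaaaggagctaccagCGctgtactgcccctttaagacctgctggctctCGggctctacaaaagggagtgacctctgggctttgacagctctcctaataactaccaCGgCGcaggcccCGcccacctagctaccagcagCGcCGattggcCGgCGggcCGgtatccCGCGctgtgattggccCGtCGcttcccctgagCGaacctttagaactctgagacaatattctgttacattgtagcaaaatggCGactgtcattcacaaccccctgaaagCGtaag
SS18L1 promoter: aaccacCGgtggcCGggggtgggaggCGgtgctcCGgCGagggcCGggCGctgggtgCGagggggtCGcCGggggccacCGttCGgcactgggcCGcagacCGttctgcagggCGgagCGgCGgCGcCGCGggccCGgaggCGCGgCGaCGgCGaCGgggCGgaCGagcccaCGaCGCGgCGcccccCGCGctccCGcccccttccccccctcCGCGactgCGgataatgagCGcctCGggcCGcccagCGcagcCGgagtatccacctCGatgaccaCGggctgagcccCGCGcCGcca
These are chr7:100656399-100656698, minus strand for ACTL6B, chr19:38229646-38229945, minus strand for DPF1, chr14:72894052-72894351, minus strand for DPF3, and chr20:62143519-62143818, plus strand for SS18L1. They hold 22 CpG in ACTL6B, 36 in DPF1, 18 in DPF3 and 49 in SS18L1, against a median of 14 over 27305 genes. The window of SS18L1, the abundant neural variant, was at the 98.5th percentile of CpG count, and that of DPF3, the scarcest, at the 56.3rd. Across all subunits with an entry, 9 of 10, the count exceeded the median in 9 of 9, from 18 in DPF3 to 55 in SMARCA4. Among the non-neural variants with an entry it was 21 in SS18, 33 in DPF2 and 47 in PHF10. SS18 held fewer CpG than SS18L1. Its TPM was like that of SS18L1 with merged exon lengths and 1.68-fold higher with transcript lengths. Whether CpG count and level are related was not tested. A CCAAT box (CCAAT, either strand) was present in ACTL6B, DPF1, DPF3, DPF2 and SS18, 5 of 9, against 35.7% of all windows, and absent from SS18L1. A GC box (GGGCGG, either strand) was present in 7 of 9, against 44.6%, and the TATA box (TATAAA, either strand) in 0 of 9, against 12.0%. These are letters in 1 window per gene, at its first listed start, and no test was made. Further starts are listed for SMARCA2, SMARCA4, DPF3 and SS18 and were not counted. Their CpG counts lay below the median in SMARCA2 and SMARCA4 and above it in DPF3 and SS18. Start 2 of SMARCA2 holds a TATA box, and start 2 of SS18 holds a GC box and no CCAAT box.

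Placed in order of mean level, the 10 genes ran SMARCA4, ACTL6A, SS18, SS18L1, DPF2, PHF10, SMARCA2, DPF1, ACTL6B and DPF3. Of the 9 neighbouring pairs in that order, only SS18 and SS18L1 overlapped between libraries, on TPM computed with merged exon lengths. The largest step was from DPF1 to ACTL6B, 3.88-fold, and the smallest from SS18 to SS18L1, 1.05-fold. With transcript lengths SS18L1 and DPF2 exchanged places, as did PHF10 and SMARCA2, and the other 6 kept theirs.

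**Figure D3:**
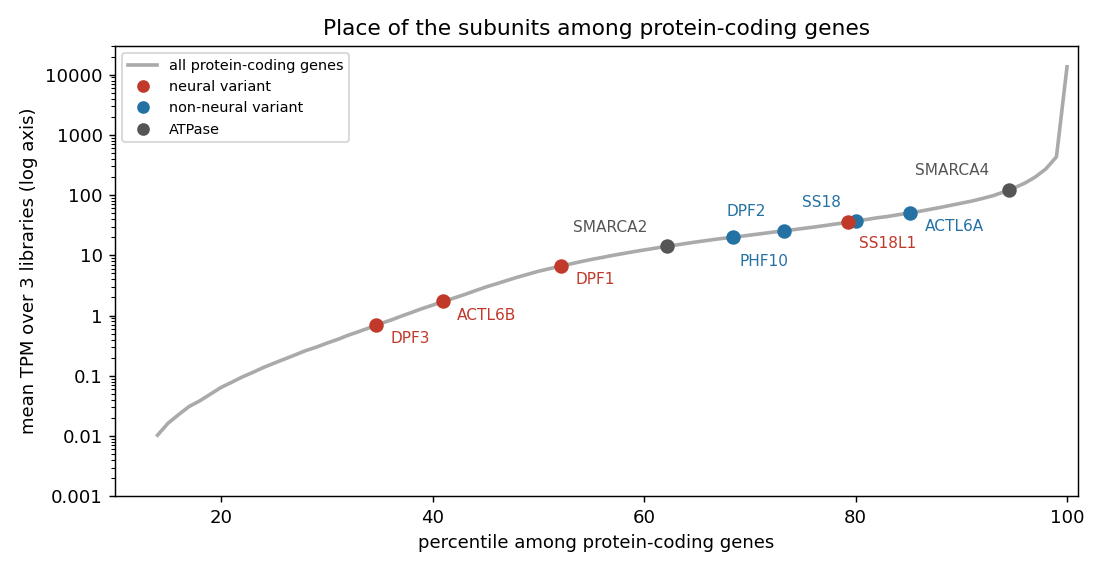
Mean TPM over 3 libraries on a log axis against percentile among protein-coding genes (grey curve), with the 10 subunit genes as points. SMARCA4 lies at the 94.5th percentile, the non-neural variants between the 68.4th and the 85.1st, and ACTL6B and DPF3 at the 41.0th and the 34.7th.

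Whether the 3 libraries differed more than counting noise allows was asked of each gene with a chi-square test on its read counts, scaled by TMM library sizes and Benjamini-Hochberg adjusted across 21039 detected genes. Of the 10 subunit genes 4 passed with each read taken as independent, a share close to the 46.1% of all detected genes that did. Where both mates were counted, that setting understates counting noise. The 4 genes were SMARCA4 (adjusted p = 3.22e-24), SS18L1 (adjusted p = 0.000189), PHF10 (adjusted p = 0.00289) and DPF2 (adjusted p = 0.0383). The differences were small: the SD of log2 CPM was 0.074 for SMARCA4, 0.088 for SS18L1, 0.092 for PHF10 and 0.052 for DPF2. When the statistic was divided by 2, to allow for mates counted separately, SMARCA4 (adjusted p = 1.95e-11) and SS18L1 (adjusted p = 0.0348) passed, 2 of 10, and 17.6% of all detected genes passed. With library totals in place of TMM sizes the count was again 4, but DPF2 (adjusted p = 0.195) no longer passed and SS18 (adjusted p = 0.0190) did. The calls also rested on single libraries. Without replicate 2, SS18L1 (adjusted p = 0.310) and DPF2 (adjusted p = 0.182) no longer passed. Without replicate 3, PHF10 (adjusted p = 0.420) and DPF2 (adjusted p = 0.478) did not, SS18 did (adjusted p = 0.0400), and SMARCA4 passed at an adjusted p of 0.0414. Without replicate 1, DPF1 passed as well (adjusted p = 0.0254).

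SMARCA4 was highest in replicate 3, and SS18L1 lowest in replicate 2. ACTL6A was the steadiest gene in log2 CPM, with an SD of 0.0061 against a median of 0.059 over 2544 genes of like level (within 0.5 log2 units). In TPM its coefficient of variation was 2.96%, above the 1.03% of DPF2, so the steadiest of the subunit genes depended on the scaling. The SD of log2 CPM was 0.24 for ACTL6B against a median of 0.29 in 2281 genes of like level, and 0.31 for DPF3 against 0.27 in 2138 genes. Neither ACTL6B (adjusted p = 0.202) nor DPF3 (adjusted p = 0.0726) passed the test, at 58 to 79 and 58 to 93 reads per library. SMARCA2 (adjusted p = 0.323) and ACTL6A (adjusted p = 0.959) did not pass either.

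**Figure D4:**
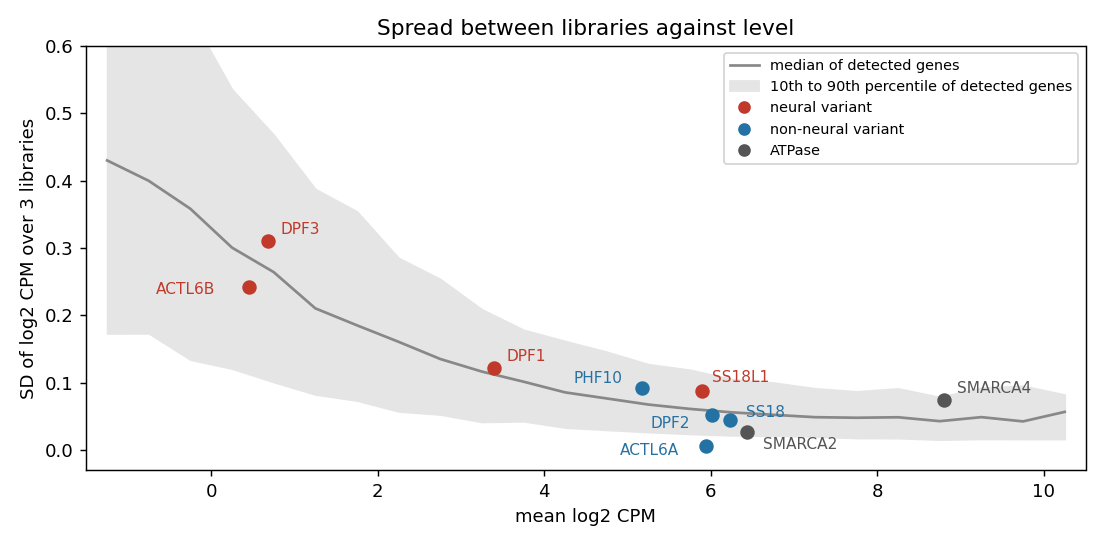
SD of log2 CPM over 3 libraries against mean log2 CPM, with the median and the 10th to 90th percentile of detected genes in grey and the 10 subunit genes as points. DPF3 and ACTL6B lie on either side of the median for their level, at SDs of 0.31 and 0.24, and ACTL6A lies at the bottom, at 0.0061.

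The other subunits of the SWI/SNF complexes were present as well. All 20 listed genes were detected and 19 of 20 reached 1 TPM, beside 71.8% and 62.7% of protein-coding genes. Their median was 24.9 TPM, beside 22.7 TPM over the 10 alternative subunits. SMARCD2, a member of another family of alternative subunits, was the highest at 192 ± 6.05 TPM. SMARCB1, the core subunit lost in rhabdoid tumours, reached 129 ± 1.47 TPM with merged exon lengths and 44.8 ± 0.472 TPM with transcript lengths. The lowest was BCL11A, with 46, 91 and 69 reads or 0.509 ± 0.190 TPM. BCL11A encodes a zinc finger protein of blood and brain that can join BAF. Of the 20, 12 passed the chi-square test with each read taken as independent, beside 46.1% of all detected genes. With the statistic divided by 2, 9 did, beside 17.6%. The test passes smaller differences at higher read counts, so these shares do not compare the size of the variation. The median SD of log2 CPM was 0.068 over the 20 genes, against 0.084 over detected protein-coding genes. ACTL6B and DPF3 stood at the lower end of all 30 genes, with BCL11A.

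**Figure D5:**
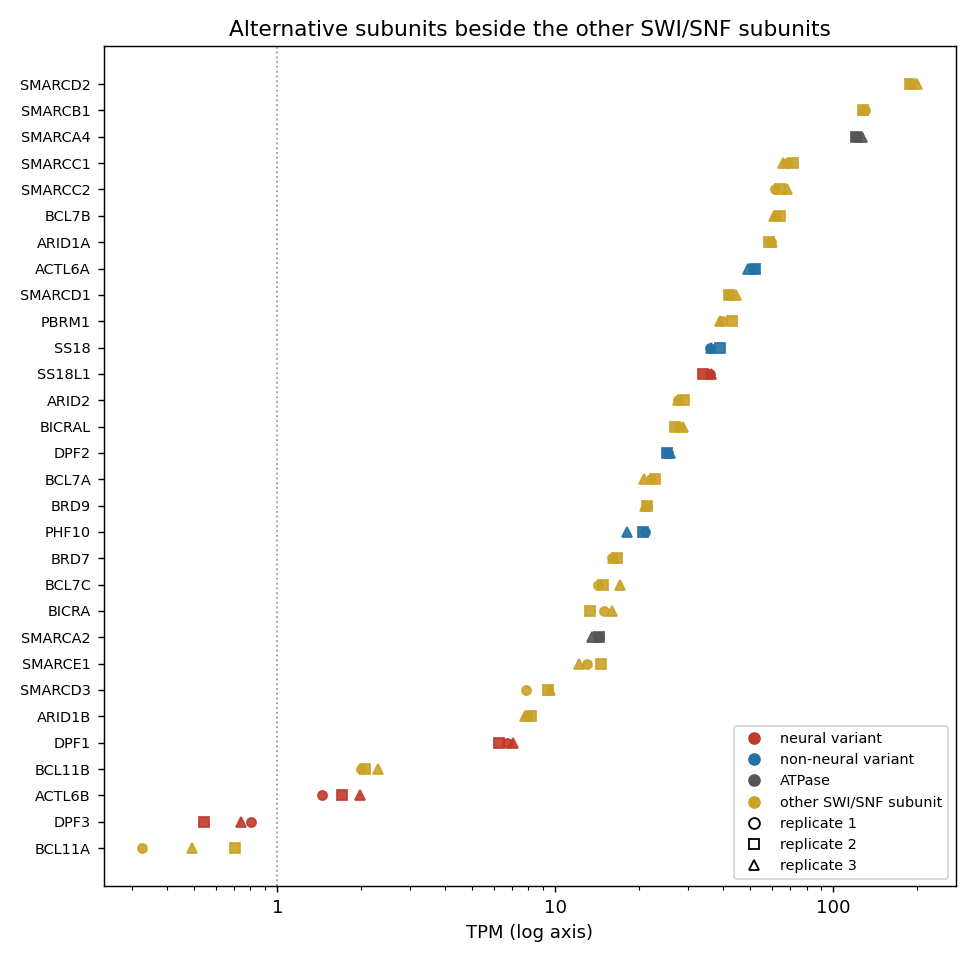
TPM on a log axis of the 10 alternative subunits and the 20 other SWI/SNF subunits in 3 C4-2 libraries, ordered by mean. The red neural variants DPF1, ACTL6B and DPF3 lie among the lowest genes, and SS18L1 lies next to SS18 in the middle of the order.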

How the data were processed

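Total RNA of 3 C4-2 libraries was measured. Per the labels' protocols, RNA was depleted of ribosomal RNA and made into strand-specific libraries with a NEBNext directional kit. The submitters' processing notes name STAR 2.7.0f, Subread 1.6.3, DESeq2 1.26.0, FastQC and Trim Galore, and the GRCh38 build. The deposited values are unnormalized counts that, per the file headers, featureCounts 1.6.3 made with Ensembl release 90. Only annotation, output and threads were set, so strand was ignored and reads over exons of several genes were dropped. The authors also deposited each gene's merged exon length in bases, a value of another kind that was used for TPM.

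TPM was computed over all genes, and symbols came from GENCODE release 44 (57532 of 58302 identifiers matched). Paired subunits were compared within libraries on log2(TPM + 0.1) by exact two-sided sign flips. TMM sizes came from edgeR 4.0.16 in R 4.3.3 and alternative size factors from DESeq2 1.42.0. The chi-square test across libraries used a threshold of 0.05. Log2 CPM used a prior count of 2. Python 3.11.15, numpy 2.4.6, pandas 2.3.3, scipy 1.17.1 and matplotlib 3.10.9 did the rest. All 10 subunits were named, and of other lists the 2 highest genes, the lowest and those with 0 reads. Some of these genes are not reported here. REST, MIR124-1HG, MIR9-1HG and MIR9-3HG were named after their values were seen. The subunits and lists were chosen with earlier results of these data known.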

Additional observations from a re-analysis of the deposited data

How the results depend on the processing

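Each of the 6 subunit differences was recomputed under 9 alternatives: pseudocounts of 1 and 0.01, longest coding transcript lengths, no length scaling, TPM over protein-coding nuclear genes, unshared exon bases (added after seeing the data) and the loss of each replicate. For 5 of the 6 the sign was the same in all of them. ACTL6B minus ACTL6A ran from −5.42 to −4.26 log2 units, DPF1 minus DPF2 from −2.61 to −1.79, DPF3 minus DPF2 from −6.58 to −3.97, PHF10 minus DPF2 from −1.08 to −0.27 and SMARCA2 minus SMARCA4 from −3.14 to −2.37. SS18L1 minus SS18 ran from −0.75 to 0.0043. It turned positive without replicate 2, at 0.0043, and ranged from −0.099 to 0.0043 as single replicates were left out. All 10 subunits stayed detected under every minimum tried, and 10 rather than 9 reached 1 TPM over protein-coding nuclear genes. The count of subunits that varied between libraries was 2 with the statistic divided by 2, and 2 to 5 as single replicates were left out. Over all genes it was 3710 with the statistic divided by 2, against 9707, and 5180 to 7102 without single replicates, where fewer libraries were compared. No paired analysis was possible because only 1 group was analysed, so replicate numbers could pair no samples across groups. Depth limits ACTL6B and DPF3 most, at 58 to 93 reads per library.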
